A study of Mus musculus with 2 samples.

Results

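Imprinted genes are expressed from the allele of a single parent, and the 32 genes described here were taken by name from well-known imprinted loci of the mouse. The rule used no methylation value, but the list was drawn up with earlier results of these data known. Their methylation was read at the cytosines of a table that lists every CpG cytosine covered in both libraries, within the body of each gene and 5 kb upstream of its start. On the genome build NCBIM37 (mm9), 31 of the 32 genes were located in the GENCODE gene models, and their windows held 1510 of the 826937 covered positions, or 1375 of 756270 CpGs. Kcnq1ot1 has no gene model of its own there. In the RefSeq order of a later build it lies within Kcnq1, so its value is not given separately. The study asked how DNA methylation changes in the absence of oestrogen receptor β (ERβ), which is encoded by Esr2. MEFs, which are fibroblasts grown from mouse embryos, came from C57BL/6 mice that were either wildtype (wt) or ESR2 -/- (βerko). DNA of 3 batches was pooled for each cell type and made into 1 library, so that there was no replicate check, and the genotype and the library cannot be told apart. The labels give neither the age of the embryos nor a treatment.

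At an imprinted locus, 1 parental copy carries methylation at a control region and the other does not, which gives intermediate methylation when both copies are read together. Germline control regions get this mark in the egg or the sperm and keep it through the loss of methylation in the early embryo, with the help of the zinc finger protein ZFP57, which binds the methylated word TGCCGC. Most known control regions are methylated on the maternal copy, and a few, such as that of H19 and Igf2, on the paternal copy. Other parental differences are laid down later in the embryo. A percentage of methylated reads does not say which copy the reads came from, and a mixture of cells can give the same percentage as a difference between copies. Whether the window of a gene holds covered positions of its control region was not checked. The values of a gene are therefore not to be taken as those of its control region.

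In RRBS, DNA is cut at CCGG by MspI and fragments of a chosen size are sequenced after bisulfite treatment. Methylated cytosines resist this treatment and remain cytosines in the reads. The table of common positions holds percentages without read numbers, so the depth of most values is unknown and no interval can be given for them. Read numbers were used at the differentially methylated positions (DMPs) of the study. Neighbouring CpGs of a fragment come from the same reads and often share a value, so they are not independent. Neither the disruption of Esr2 nor the cell type can be checked from percentages of methylation.

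A stretch of partial methylation was taken as a run of at least 4 covered CpGs, each at 30 to 70 % in a library, with gaps of at most 200 bp and with both strands of a CpG averaged. A wt stretch was called kept where the mean of the same CpGs in βerko MEFs was also 30 to 70 %, and lost where it was below 30 % or above 70 %. The sequences of 7 such stretches are shown as examples of 3 kinds, which are wt stretches with lower values in βerko MEFs, a kept stretch, and βerko stretches that were high in wt MEFs. They lie outside annotated untranslated regions, apart from 24 bases at Grb10. Stretches that were higher in βerko MEFs are described with their genes. All are from the plus strand of NCBIM37, and capitals mark the CpGs that were covered in both libraries. The first 3 were at 30 to 70 % in wt MEFs and lower in βerko MEFs.
Zrsr1, chr11:22871975-22872094: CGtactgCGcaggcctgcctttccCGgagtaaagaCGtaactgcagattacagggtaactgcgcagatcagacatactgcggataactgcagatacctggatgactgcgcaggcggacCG
Gnas, chr2:174124894-174125155: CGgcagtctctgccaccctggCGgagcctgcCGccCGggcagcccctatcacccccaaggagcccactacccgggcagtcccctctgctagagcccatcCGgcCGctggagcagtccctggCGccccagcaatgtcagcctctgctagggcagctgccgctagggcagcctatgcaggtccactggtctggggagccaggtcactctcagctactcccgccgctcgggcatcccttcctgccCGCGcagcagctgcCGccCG
Kcnq1, chr7:150292988-150293020: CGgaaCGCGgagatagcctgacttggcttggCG
The stretch in Plagl1 was at 30 to 70 % in wt MEFs and had a mean within this range in βerko MEFs.
Plagl1, chr10:12810891-12810934: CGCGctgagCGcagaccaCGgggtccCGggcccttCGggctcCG
The last 3 were above 70 % on average in wt MEFs and at 30 to 70 % in βerko MEFs.
Grb10, chr11:11926304-11926409: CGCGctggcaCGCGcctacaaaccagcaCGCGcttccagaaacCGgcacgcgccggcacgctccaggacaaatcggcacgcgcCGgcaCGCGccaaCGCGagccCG
Cdkn1c, chr7:150645206-150645340: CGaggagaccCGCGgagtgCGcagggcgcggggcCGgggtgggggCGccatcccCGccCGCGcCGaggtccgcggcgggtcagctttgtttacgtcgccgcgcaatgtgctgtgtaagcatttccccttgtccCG
Asb4, chr6:5333722-5333825: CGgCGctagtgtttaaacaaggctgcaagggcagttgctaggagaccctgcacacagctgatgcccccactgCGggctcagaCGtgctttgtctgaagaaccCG

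Positions of the 31 located genes were partly methylated more often than the covered positions as a whole. In wt MEFs, 358 of 1510 positions (23.7 %, 95 % Wilson confidence interval 21.6 to 25.9 %, which takes positions as independent) were at 30 to 70 %, compared with 10.4 % of all covered positions. In βerko MEFs there were 310 such positions (20.5 %, 18.6 to 22.6 %), compared with 8.95 %. Mean methylation over imprinted genes was 50.5 % in wt and 40.7 % in βerko MEFs, a difference of -9.81 percentage points, while over all covered positions it was 40.7 and 38.8 %. Methylation was lower in βerko MEFs by at least 20 percentage points at 446 positions, or 29.5 % against 10.4 % of all positions. It was higher by as much at 137 positions, or 9.07 % against 6.81 %. No test was made on these shares, since there is 1 library per cell type.

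**Figure D1:**
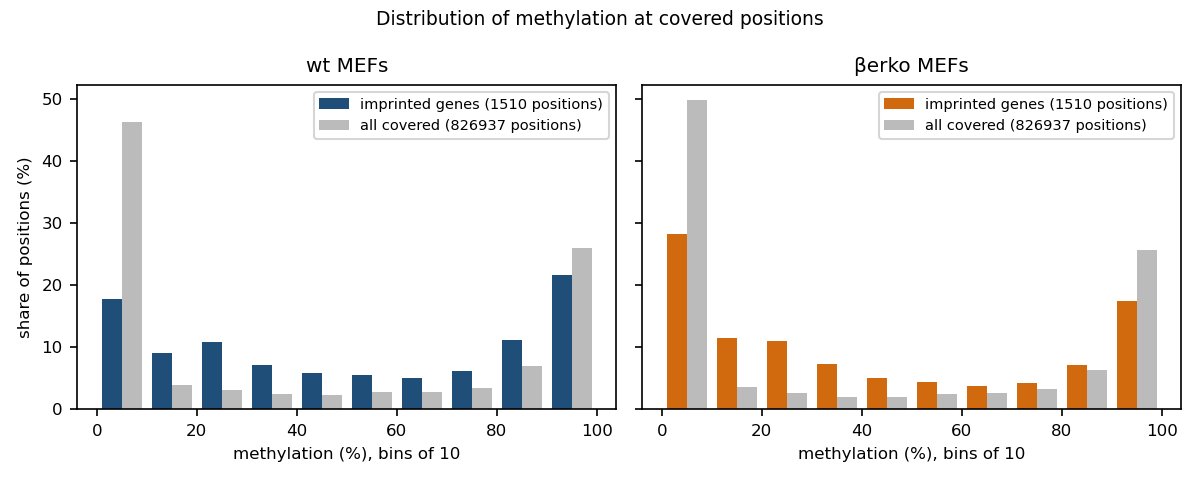
Share of positions in bins of 10 % methylation, for the 1510 positions of imprinted genes (coloured) and all 826937 covered positions (grey), in wt MEFs on the left and βerko MEFs on the right. Imprinted genes have more positions between 10 and 90 % than the whole table in both libraries, and in βerko MEFs their lowest bin is the highest bar.

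Of the 358 positions at 30 to 70 % in wt MEFs, 196 (54.7 %) were below 30 % in βerko MEFs, 95 (26.5 %) stayed within the range and 67 (18.7 %) were above 70 %. Over all covered positions of that kind, the shares were 35.2, 28.8 and 36.0 %. Loss of partial methylation among imprinted genes was therefore mostly towards low values, whereas over the whole table both directions were about as frequent. In the other direction, of 310 positions at 30 to 70 % in βerko MEFs, 154 (49.7 %) had been above 70 % in wt MEFs and 61 (19.7 %) below 30 %, compared with 45.9 and 20.6 % over the whole table.

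Among the 30 members with at least 5 positions, the mean was lower in βerko MEFs by at least 10 percentage points in 13. Of all genes with at least 5 positions, 10.4 % had such a difference. A mean higher by as much was found in 1 member, H19, against 3.85 % of all genes. The median difference was -7.49 percentage points over these members and -0.433 over the 18947 genes with at least 5 positions. The lowest differences were at Nap1l5 with -44.9, Zrsr1 with -24.1, Peg3 with -21.4 and Cdkn1c with -20.5 percentage points. By a rule set for all members, 20 are described in detail below for a stretch, a DMP or a mean difference of at least 10 percentage points, and the other 11 located members had differences from -12.0 at Ndn, with 3 positions, to 6.52 at Zim1.

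**Figure D2:**
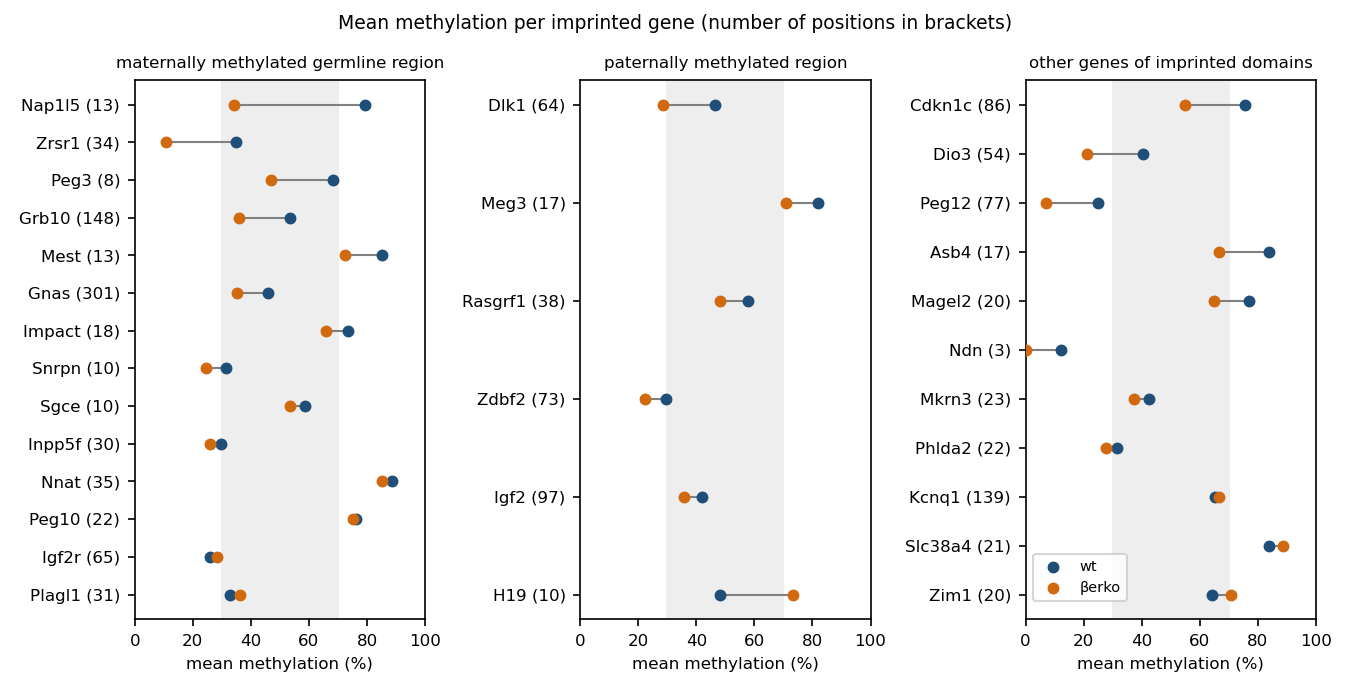
Mean methylation (%) of the covered positions of each located imprinted gene in wt (blue) and βerko MEFs (orange), grouped by the kind of imprinted region the gene is known for and ordered by the difference. The grey band marks 30 to 70 %, and the number of positions is in brackets. Nap1l5 moves from 79.2 to 34.3 % and H19, in the opposite direction, from 48.1 to 73.3 %.

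Among genes known for maternally methylated germline regions, Zrsr1, an intronless gene that lies within an intron of Commd1 and is expressed from the paternal copy, had low values in βerko MEFs. Over its 34 positions means were 34.8 % (wt) and 10.8 % (βerko), and 18 positions in wt but 2 in βerko MEFs were at 30 to 70 %. A block of 13 covered CpGs at chromosome 11 from 22871863 to 22872203, upstream of Zrsr1, had a mean of 46.8 % in wt, with values from 20 to 82.6 %, and 4.91 % in βerko MEFs, with none above 12.1 %. A block is used here for a run of at least 4 covered CpGs with gaps of at most 200 bp, whatever their values. The stretch whose sequence is shown first lies in this block. Its 5 CpGs, which the rule had chosen for their wt values, read 54.05, 48.65, 50.9, 55.56 and 40 % in wt MEFs. In βerko MEFs they read 8.57, 8.57, 9.27, 6.1 and 0 %. A second stretch, in the exon, averaged 42.7 % in wt MEFs but 23.9 % in βerko MEFs. Its last 2 CpGs had 36.34 and 65.96 % in wt MEFs and 55.3 and 45.8 % in βerko MEFs. At the first of these the minus strand rose from 28 to 77.27 %, while the plus strand fell from 44.68 to 33.33 %. Over the gene body alone the mean difference of Zrsr1 was -12.6 percentage points. Zrsr1 arose as a copy of Zrsr2, and whether reads in the exon were shared with it was not tested.

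Nap1l5, a single-exon gene within Herc3 that codes for a nucleosome assembly protein, had the largest difference of all members. A block of 12 CpGs in its exon, at chromosome 6 from 58856628 to 58856872, had a mean of 80.1 % in wt, with a range of 56.5 to 96.4 %, and 34.3 % in βerko MEFs, with a range of 13.04 to 85.71 %. Of its 13 positions, 12 were lower by at least 20 percentage points. Its βerko values were at 30 to 70 % at 6 positions and below 30 % at 6, so no run of 4 CpGs qualified as a stretch.

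Grb10 codes for an adaptor that restrains growth signalling from insulin and IGF receptors, and it uses different promoters for its maternal and paternal copies. Its 148 positions averaged 53.5 % in wt MEFs but 35.8 % in βerko MEFs. The start of the transcript Grb10-001 lies within 37 covered CpGs, at chromosome 11 from 11926188 to 11926472, whose means were 83.3 % (wt) and 48.3 % (βerko). Here 13 CpGs in a row, shown above, were at 33.3 to 65.6 % in βerko MEFs with a mean of 49.2 %, while their wt mean was 76 % with a range of 38.5 to 100 %. The neighbouring block of 17 CpGs, from 11925631 to 11925897, had 69.1 % in wt and 27.2 % in βerko MEFs. Within it, 7 CpGs formed a stretch in wt at 41.8 to 55.8 % that was at 3.57 to 9.5 % in βerko MEFs. Near the start of the gene model the opposite was seen, since 4 CpGs from 11937539 to 11937552 averaged 6.86 % in wt MEFs but 49.6 % in βerko MEFs. Of its 148 positions, 31 in wt and 61 in βerko MEFs were at 30 to 70 %, and 10 of these were shared.

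Gnas codes for the stimulatory G protein subunit, and its locus has several alternative first exons with opposite imprints. With 301 positions it had the most of all members, and its means were 45.8 % (wt) and 35.4 % (βerko). A region of 65 CpGs in chromosome 2 from 174124574 to 174126108, which overlaps an exon, averaged 74.9 % in wt MEFs but 43.8 % in βerko MEFs. At its proximal end, the 11 CpGs of the stretch shown above were at 40 to 60 % in wt MEFs with a mean of 50.8 %, and had a mean of 28.9 % in βerko MEFs. At its distal end, 5 CpGs from 174126068 to 174126090 were at 89.0 to 100 % in wt and 36.7 to 62.2 % in βerko MEFs. Around the start of the transcript Gnas-016, 13 CpGs had similar means, 64.3 % in wt and 63.5 % in βerko MEFs, but 19 CpGs from 174153898 to 174154240 had 80.6 and 44.9 %. Strands differed within the latter block. On the minus strand, 174154012, 174154023 and 174154046 rose from 38.46, 61.54 and 30.77 to 100 %. The plus strand of these CpGs fell from 56.67, 73.33 and 83.33 to 16.92, 20 and 80 %. Minus strand positions from 174154212 to 174154240 fell to between 6.45 and 19.35 %. A stretch of 7 CpGs at the antisense gene Nespas was kept, with means of 40.1 and 45.9 %. At the start of Gnas-018, 85 CpGs were unmethylated in both libraries, with means of 0.413 and 0.0808 %.

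Peg3, a zinc finger gene expressed from the paternal copy, had 8 covered positions. The 5 CpGs in the exon at its start averaged 58.5 % in wt MEFs but 18.4 % in βerko MEFs. At Snrpn, which codes for a small nuclear ribonucleoprotein and marks the control region of the Prader-Willi and Angelman domain, 4 CpGs at the start of Snrpn-201 were at 26.7 to 34.4 % in wt and at 2.63 to 16 % in βerko MEFs. Mest, which codes for a hydrolase-like protein, averaged 85.2 % in wt MEFs but 72.4 % in βerko MEFs at 13 positions, and its 6 CpGs in an intron near the start of Mest-004 had 83.3 and 67.8 %. None of these formed a stretch by the rule.

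The other genes of this group had mean differences below 10 percentage points in either direction. Plagl1, a zinc finger regulator of growth, had 29 CpGs around its start at 30.2 % in wt and 34.2 % in βerko MEFs. The 7 CpGs shown above averaged 38.1 % in wt MEFs but 31.2 % in βerko MEFs. A run of 8 CpGs nearby had 19.1 and 30.5 %, and counts as a gain although its βerko values, from 30.4 to 30.8 %, lie at the limit of 30 %. At Igf2r, the receptor that removes IGF2, 13 CpGs within the intron that holds the start of the antisense RNA Airn had 28.8 % in wt and 21.7 % in βerko MEFs. Of these, 5 CpGs formed a wt stretch of 36.1 %, with 27.9 % in βerko MEFs. Near the start of Igf2r itself, 4 CpGs were at 12.5 to 25 % in wt and 32.6 to 45.9 % in βerko MEFs. The 9 CpGs at the shared start of Peg10 and Sgce had means of 54.1 and 48.2 %, but none was at 30 to 70 % in either library. Over both libraries, plus strand values there were 80 to 93.75 % and minus strand values 17.07 to 27.78 %. At an internal start of Inpp5f, 6 CpGs had 76.9 and 65.2 %. There the plus strand read 80, 100 and 70 % in wt and 100 % throughout in βerko MEFs. The minus strand read 78.26, 79.17, 87.5 and 50 % in wt and 55.56, 21.43, 28.57 and 50 % in βerko MEFs. At Impact, 10 CpGs in an intron near its start averaged 55.5 % in wt MEFs but 45.7 % in βerko MEFs. Those at 13131881, 13131890 and 13131909 were at 100 % in both libraries, and the others were below 30 % in βerko MEFs. Of its 18 positions, 6 were lower by at least 20 percentage points and none higher. All 4 positions at 30 to 70 % in wt were below 30 % in βerko MEFs. Nnat was mostly methylated, with means of 88.8 and 85.0 % over 35 positions.

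**Figure D3:**
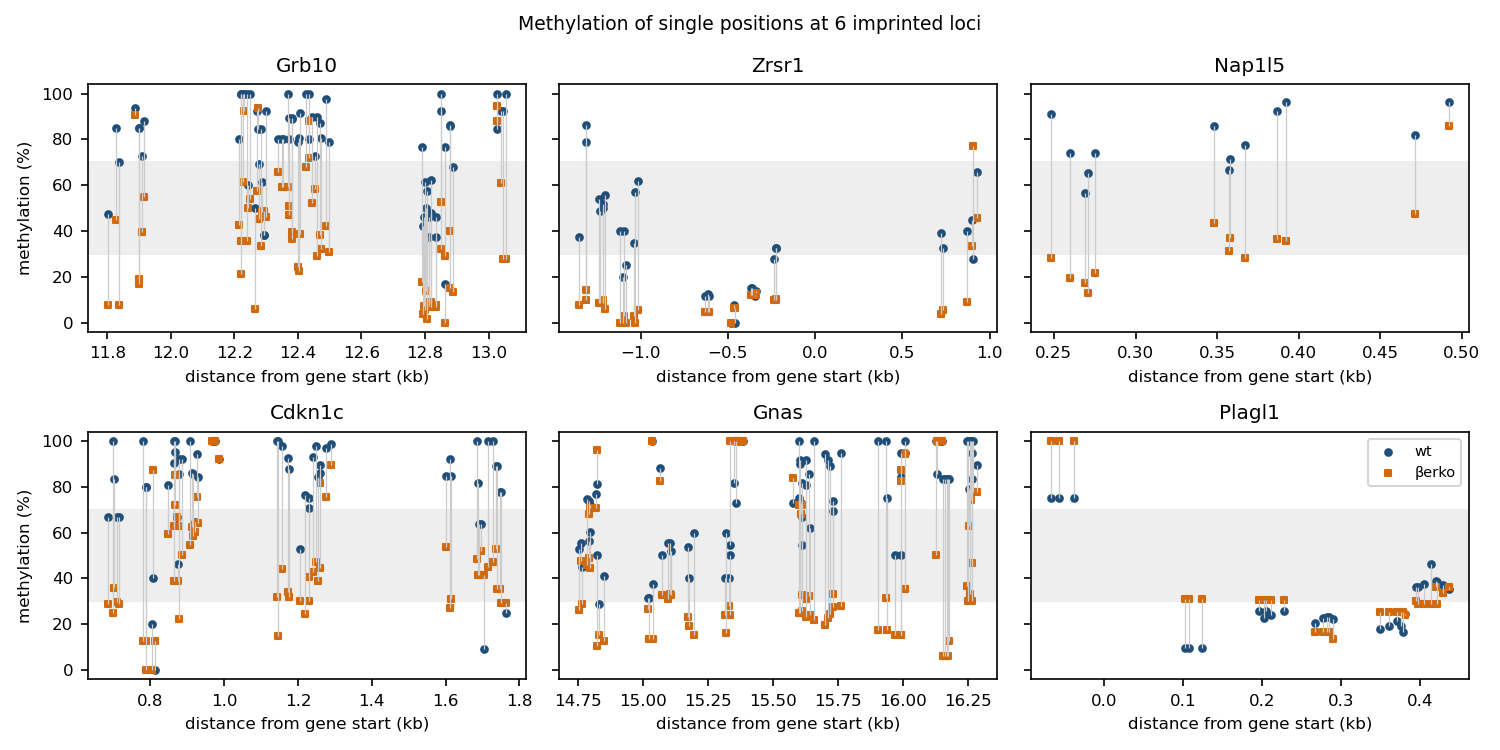
Methylation (%) of single positions in wt (blue circles) and βerko MEFs (orange squares) against the distance from the start of the gene model in kb, with a grey line joining the values of a position and a grey band at 30 to 70 %. A part of each gene is shown, and in the parts of Grb10, Zrsr1, Nap1l5, Cdkn1c and Gnas most orange points lie below the blue ones, whereas at Plagl1 they lie on both sides of them and mostly below 40 %.

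H19, a non-coding RNA expressed from the maternal copy, was the member whose mean was higher by at least 10 percentage points in βerko MEFs. Its 10 positions averaged 48.1 % in wt MEFs but 73.3 % in βerko MEFs, and 6 of them were higher by at least 20 percentage points and none lower by as much. The 4 CpGs within 100 bp upstream of its start had 35.42, 29.79, 31.11 and 22.22 % in wt and 76.09, 72.34, 53.57 and 53.57 % in βerko MEFs. Further upstream, 2 positions had 72.73 and 88.89 % in wt and 82.61 and 96.0 % in βerko MEFs. Igf2, the growth factor expressed from the paternal copy of the same domain, averaged 41.9 % in wt MEFs but 35.6 % in βerko MEFs at 97 positions, of which 20 were lower and 12 higher by at least 20 percentage points. Its stretch of 4 CpGs near Igf2-002, at 40 to 50 % in wt, had a mean of 72.7 % in βerko MEFs with a range of 42.9 to 90.9 %. A larger block of 51 CpGs around it had 32.3 and 23.0 %.

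At Dlk1, a paternally expressed ligand-like protein that restrains adipogenesis, 31 CpGs from 110691550 to 110691878 on chromosome 12 averaged 33.8 % in wt MEFs but 6.71 % in βerko MEFs. A stretch of 6 CpGs among them read 40, 50, 60, 60.87, 50 and 32.56 % in wt MEFs and 5.77, 10, 28.85, 8.43, 4.82 and 3.66 % in βerko MEFs. In an exon further along, 7 CpGs were higher in βerko MEFs, with 76.8 and 94.1 %. Meg3, the maternally expressed non-coding RNA of the same domain, had means of 82.0 and 70.8 % at 17 positions. The 5 positions upstream of its start read 70.93, 49.09, 43.64, 65 and 75 % in wt MEFs and 18.87, 28.17, 14.08, 15 and 15.79 % in βerko MEFs, each lower by at least 20 percentage points. Over the gene body alone the difference was 1.87 percentage points, in the opposite direction, and 4 CpGs in an exon had 84.8 and 86.1 %. At Rasgrf1, an exchange factor for Ras, 5 CpGs upstream of the start were at 62.5 to 93.8 % in wt and 35.7 to 59.5 % in βerko MEFs. Of its 38 positions, 14 were lower and 4 higher by at least 20 percentage points, and its only DMP, given below, was higher in βerko MEFs. Zdbf2, a paternally expressed gene, had 65 CpGs around its start with means of 27.5 and 20.5 %.

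Among genes of imprinted domains that are not known for a germline region of their own, Cdkn1c, the inhibitor of cyclin-dependent kinases expressed from the maternal copy, had more partly methylated positions in βerko than in wt MEFs. Its 86 positions averaged 75.5 % in wt MEFs but 55.0 % in βerko MEFs, 19 of them at 30 to 70 % in wt and 43 in βerko MEFs. In the body of the gene, 40 CpGs on chromosome 7 from 150645664 to 150646271 had 81.5 % in wt and 46.9 % in βerko MEFs, and 15 CpGs from 150645191 to 150645355 had 75.9 and 40.7 %. They held 4 βerko stretches of 11, 5, 4 and 7 CpGs with values between 30.3 and 63.0 % in βerko MEFs, against wt means of 78.0, 87.1, 82.7 and 82.0 %. Upstream of the gene the direction was opposite, since 4 CpGs from 150650961 to 150650986 averaged 50.2 % in wt MEFs but 73.9 % in βerko MEFs. Without the 22 upstream positions, the mean difference over the gene body was -32.8 percentage points.

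Kcnq1, a potassium channel gene of the same domain, had similar means of 65.3 and 66.7 % over 139 positions. At its start, 28 CpGs had 31.9 and 16.4 %, and the stretch of 4 CpGs shown above had 43.42, 50, 69.44 and 47.22 % in wt MEFs and 25.7, 2.94, 26.47 and 36.36 % in βerko MEFs. Within its introns, 14 CpGs from 150481280 to 150481523 had 76.4 and 68.1 %, and 9 CpGs from 150566510 to 150566785 had 64.1 and 89.8 %. The first of these blocks was split. Minus strand positions from 150481316 to 150481348 were at 14.52 to 27.87 % in wt and 17.65 to 20.59 % in βerko MEFs. The remaining positions of that block were at 88.89 to 100 % in wt and 62.5 to 100 % in βerko MEFs. Which covered positions of Kcnq1 belong to Kcnq1ot1 was not determined. Phlda2, which limits placental growth, had 31.5 and 27.6 % over 22 positions.

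In the Prader-Willi and Angelman domain, Peg12 was low in βerko MEFs. Its 65 CpGs in chromosome 7 from 69608405 to 69609420 averaged 25.4 % in wt MEFs but 7.80 % in βerko MEFs, and 14 positions in wt but 0 in βerko MEFs were at 30 to 70 %. Magel2, a regulator of ubiquitin ligases, had 76.9 and 64.7 % at 20 positions. Mkrn3, itself a ubiquitin ligase gene, had 42.6 and 37.4 % at 23 positions, and 3 positions of Ndn were at means of 12.0 % (wt) and 0 % (βerko). Dio3, which inactivates thyroid hormone and lies in the domain of Dlk1, had 27.7 and 6.76 % at 28 CpGs upstream and 45.2 and 22.2 % at 16 CpGs around its start. Asb4, a gene of the Peg10 domain, had 5 CpGs in an intron near its start, shown above, that read 97.22, 94.2, 80, 97.78 and 87.9 % in wt MEFs and 44, 54.67, 38.75, 56.25 and 53.1 % in βerko MEFs. Over the gene body of Asb4 alone the mean difference was -31.4 percentage points, compared with -17.4 with the upstream positions. Slc38a4, an amino acid transporter, and Zim1, a zinc finger gene near Peg3, had small differences, 4.64 and 6.52 percentage points higher in βerko MEFs.

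Counted by the rule, imprinted genes held 13 wt stretches in 9 members and 19 βerko stretches in 7 members. Of all genes with at least 5 positions, 6.18 % had a wt stretch and 4.61 % a βerko stretch. A stretch in either library was found in 11 members, against 8.98 % of these genes. Of the 13 wt stretches, 8 were lost to below 30 % in βerko MEFs, 2 to above 70 % and 3 were kept. Over the 1549 wt stretches of the whole table, the shares were 54.3, 7.55 and 38.2 %, so the split among imprinted genes was near that of the table. Of the 19 βerko stretches, 13 had a mean above 70 % in wt, compared with 41.4 % of 1151 stretches in all, while 3 had been below 30 % (13.2 % in all) and 3 were at 30 to 70 % already (45.4 %). These numbers are small, and the 13 stretches came from 5 genes, with 4 each in Gnas and Cdkn1c, 3 in Grb10 and 1 each in Asb4 and Rasgrf1. Some in Gnas reached the range only because unlike strands were averaged. In its stretch from 174154011 to 174154037, for example, the strands of the CpG at 174154020 had 14.29 and 100 % in βerko MEFs. With single strand positions there were 15 βerko stretches, of which 9 had a mean above 70 % in wt. Closest to the limits were the wt stretch of 11 CpGs in Gnas, with 28.9 % in βerko MEFs and so counted as lost, and that of Plagl1, with 31.2 % and so counted as kept.

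**Figure D4:**
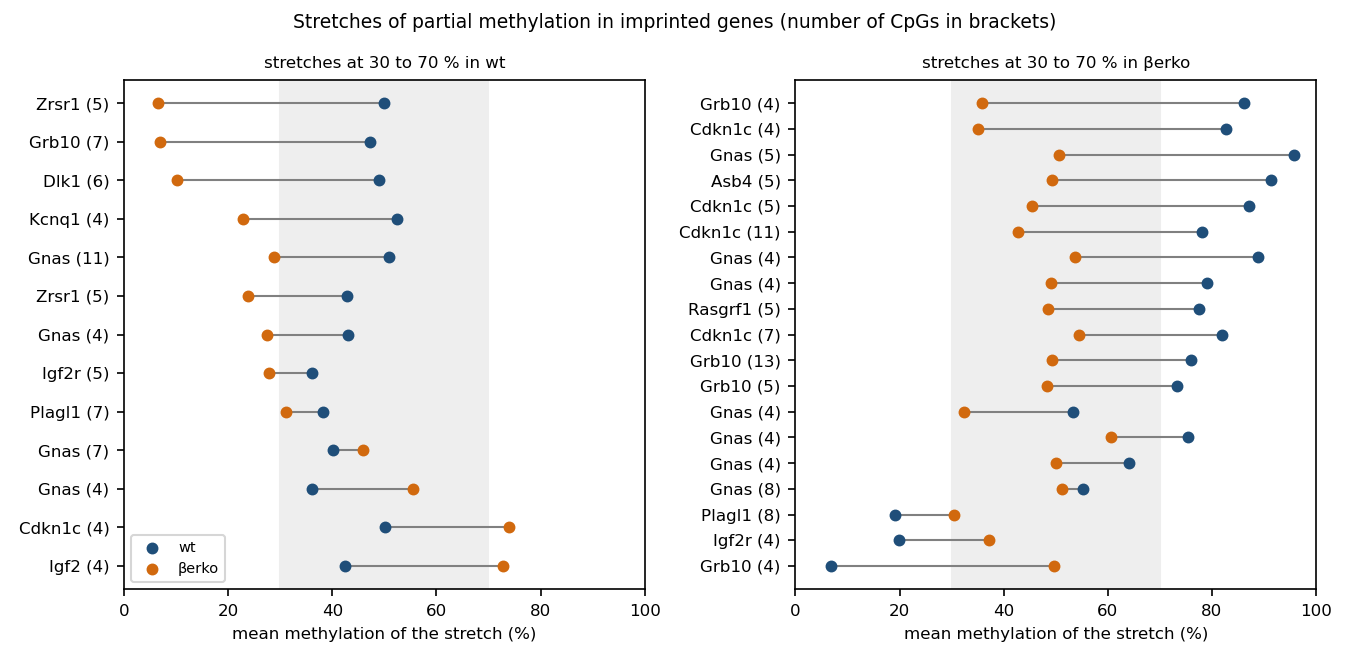
Mean methylation (%) in wt (blue) and βerko MEFs (orange) of the 13 stretches at 30 to 70 % in wt (left) and the 19 at 30 to 70 % in βerko MEFs (right), with the number of CpGs in brackets and the grey band at 30 to 70 %. On the left 8 orange points lie below the band, and on the right 13 blue points lie above it.

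Taken by blocks, which do not require each CpG to be in the range, 86 blocks of covered CpGs lay in 30 members, with the block shared by Peg10 and Sgce counted in both. In wt MEFs 28 of them had a mean of 30 to 70 %, compared with 14.0 % of all 48969 blocks, and in βerko MEFs 30, compared with 11.7 %. Of the 28, 14 stayed within the range (45.7 % of all such blocks), 12 were below 30 % (25.7 %) and 2 were above 70 % (28.5 %) in βerko MEFs. A block mean within the range can average high and low CpGs, as at the start of Peg10 and Sgce and, in βerko MEFs, at Impact. Of 39 blocks above 70 % in wt MEFs, 14 were at 30 to 70 % in βerko MEFs, against 8.55 % in all, 25 stayed above 70 % (90.2 % in all) and none was below 30 % (1.28 % in all). Of 19 blocks below 30 % in wt MEFs, 17 stayed there (97.1 % in all), 2 reached the range (2.63 %) and none was above 70 % (0.281 %). Lower block means in βerko MEFs were thus seen at 2 levels, from partly methylated to low, as at Zrsr1 and Dlk1, and from highly to partly methylated, as at Grb10, Nap1l5 and Cdkn1c.

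**Figure D5:**
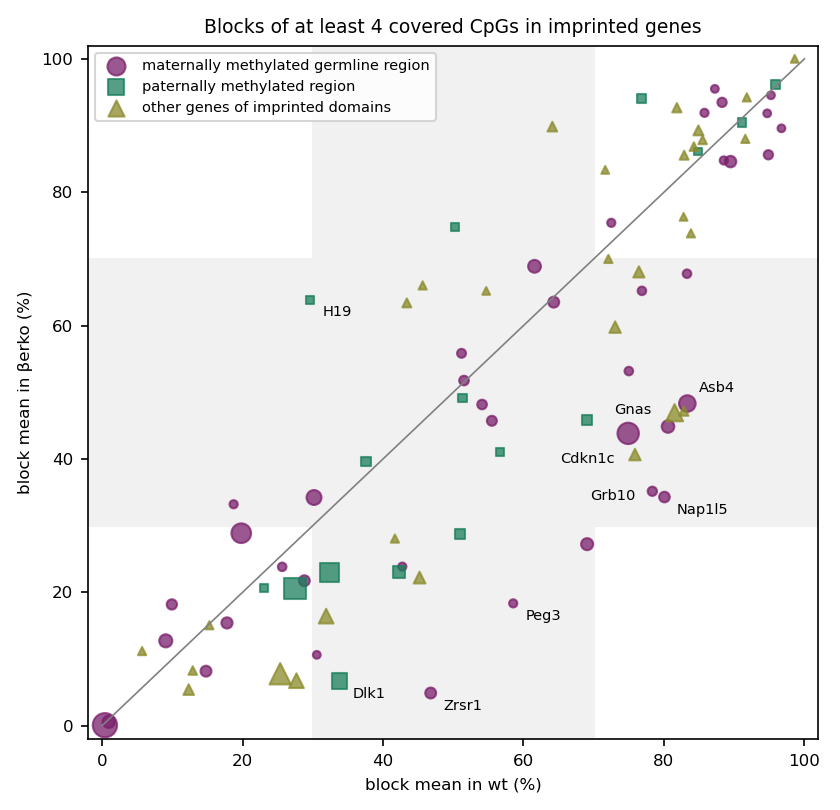
Mean methylation (%) of each of the 86 blocks in wt (horizontal) and βerko MEFs (vertical), with marker area growing with the number of CpGs, marker shape and colour giving the kind of gene, and grey bands at 30 to 70 %. The line marks equal values, and names stand beside blocks of genes described in the text, such as Zrsr1 at 46.8 and 4.91 % and H19 at 29.6 and 63.9 %.

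The sequence around the stretches was rich in CpGs. In windows of 300 bp centred on the 32 stretches, some of which overlap, the median number of CpGs in the reference was 26.5, compared with 23 around the 2700 stretches of the whole table. The word TGCCGC or its reverse complement GCGGCA was found in 13 of the 32 windows (40.6 %) and in 24.4 % of the 2700 windows. A match is a description of the reference sequence and does not show binding.

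Imprinted genes held 26 hypomethylated DMPs in 9 members, positions with more than 4 reads in both libraries, above 80 % in wt and below 20 % in βerko MEFs. They made up 1.72 % of the positions of imprinted genes, against 0.700 % of all positions. Gnas alone held 11 of the 26, and some of these were close neighbours with equal depths. Those from 174125974 to 174126000 each had 6 reads in wt and 16 in βerko MEFs, and none passed the test described below. Those from 174154212 to 174154240 each had 5 and 31 reads. The opposite, hypermethylated DMPs, were 9 in 7 members, or 0.596 % against 0.237 %. For each DMP, methylated and unmethylated reads of both libraries entered Fisher's exact test (two-sided), with adjustment by the Benjamini-Hochberg method over all 826937 positions, with untested positions at 1. DMPs are chosen for their difference, so the test shows where reads were enough to tell the libraries apart and says nothing of the genotypes. It was passed at an adjusted p of 0.05 by 17 hypomethylated DMPs, where 0.642 % of all positions passed, and by 7 hypermethylated DMPs, where 0.212 % passed. Those that did not pass had at most 10 reads in wt MEFs.

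The clearest hypomethylated DMP, in Cdkn1c at 150645809, was methylated in 100 % of 41 reads in wt (exact 95 % interval from 91.4 %) and in 14.6 % of 41 reads in βerko MEFs (5.57 to 29.2 %, adjusted p = 2.29e-14 in Fisher's exact test). In Gnas at 174154020 it was 96.7 % of 30 reads and 14.3 % of 63 reads (adjusted p = 1.48e-12 by Fisher's exact test). This loss was on the plus strand only, since the minus strand of the same CpG, at 174154021, had 92.31 and 100 %. Gnas had another hypomethylated DMP at 174125523 with 94.4 % of 36 reads and 19.7 % of 66 reads. In Peg3 the DMP at 6682973 had 81.5 % of 27 reads and 0 % of 13 reads, with an exact upper bound of 24.7 %. Zrsr1 had a DMP at 22871903 with 86.4 % of 22 reads and 14.3 % of 42 reads, and Dlk1 had 1 at 110691875 with 84.6 % of 13 reads and 3.7 % of 54 reads. Both lie in the blocks that were low in βerko MEFs. At the start of Dio3, 111517263 had 84.6 % of 39 reads and 0 % of 10 reads. Intervals and tests cover counting error and take no account of PCR copies.

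Hypermethylated DMPs occurred in members that were lower on average in βerko MEFs, such as Igf2, and in H19 and Kcnq1, which were higher on average. At Igf2, the position 149850272 had 10.5 % of 38 reads in wt MEFs and 93.55 % of 31 reads in βerko MEFs (adjusted p = 1.81e-10, Fisher's exact test). This gain was on the plus strand only, since the minus strand of the same CpG, at 149850273, had 28.42 and 36.36 %. In the same gene 149843247 was hypomethylated, with 87.2 % of 39 reads and 13.6 % of 22 reads. In the exons of H19, 149761918 had 18.5 % of 27 reads and 84.8 % of 33 reads (adjusted p = 4.37e-05 by Fisher's exact test). Kcnq1 had 2 hypermethylated DMPs, 150351651 with 12.8 % of 39 reads and 80.65 % of 31 reads and 150566627 with 12.2 % of 49 reads and 81.0 % of 21 reads. Gnas and Grb10 also had DMPs in both directions, so that 3 members did, with Igf2. The 2 hypermethylated DMPs of Zdbf2, with 6 reads in wt MEFs and 8 in βerko MEFs, and the single hypomethylated DMP of Peg12, with 9 and 6 reads, did not pass.

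A further list of 40 imprinted genes that are not members gave 32 genes with at least 5 positions outside the windows of the members. Their mean was lower in βerko MEFs by at least 10 percentage points in 5 and higher by as much in 1, with a median difference of -0.161 percentage points. The lowest was H13, whose 66 positions had 60.3 % in wt and 31.0 % in βerko MEFs, followed by Klf14, near Mest, with 80.6 and 53.4 % at 69 positions. Kcnk9, with 58.0 and 41.1 % at 115 positions, Sfmbt2 and Ddc were the others. A wt stretch was found in 3 and a βerko stretch in 5 of these genes. Over all genes with at least 5 positions, 10.4 % were lower and 3.85 % higher by at least 10 percentage points, 6.18 % had a wt stretch and 4.61 % a βerko stretch. Of the 1323 positions of this further list, 12.2 % in wt and 12.9 % in βerko MEFs were at 30 to 70 %, and 15.6 % were lower by at least 20 percentage points, which is nearer to the whole table than to the members. Of 9 genes for factors that maintain imprints, 7 differed by less than 10 percentage points, Zfp57 among them with 49.1 and 45.0 % at 8 positions. Dppa3, which protects the maternal genome from demethylation in the zygote, had 67.4 and 43.0 % at 15 positions, and Dnmt3l, a cofactor of methyltransferases in germ cells, had 71.2 and 87.6 % at 7 positions. None of the 9 had a stretch.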

How the data were processed

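The authors pooled DNA of 3 batches into 1 RRBS library per cell type and used the Genomatix Mining Station, whose version is not given in the sources used here, for mapping. The processing notes name CASAVA 1.4 and the build mm9. The deposited values are the percent methylation at cytosines that both libraries covered, with no depth. Read counts were deposited for DMPs, as coverage beside a percentage, from which methylated reads were recovered. Each of the 826937 positions was a CpG cytosine of NCBIM37, and all 8071 DMPs were among them.

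Gene models were from GENCODE M1. Members and lists were chosen with earlier results of these data known, and blocks were added after the data had been seen. Described in detail were members with at least 1 stretch, at least 1 DMP, or at least 5 positions and a mean difference of at least 10 percentage points. Groups of members follow textbook knowledge. Both strands of a CpG were averaged in stretches and blocks. The scripts were tested on simulated data. Versions were 3.11.15 of Python, 1.17.1 of SciPy, 2.4.6 of NumPy, 2.3.3 of pandas, 0.24.0 of pysam and 3.10.9 of matplotlib.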

Additional observations from a re-analysis of the deposited data

How the results depend on the processing

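Shares moved with the limits that define them. With a range of 20 to 80 %, 41.7 % of positions of imprinted genes in wt and 36.1 % in βerko MEFs were partly methylated. With a difference of at least 30 percentage points, 19.3 % were lower and 5.23 % higher in βerko MEFs. Merged strands, gene bodies alone, 2 or 20 kb upstream and, added after the data had been seen, leaving out Gnas moved none of these shares beyond the main interval where they were run.

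Stretch counts depended on the definition. With at least 3 CpGs there were 26 wt stretches (8 kept, 16 lost to below 30 %) and 29 βerko stretches (7 at 30 to 70 % in wt, 5 from below). With at least 6 CpGs there were 5 wt stretches (3 lost to low and 0 to high values) and 5 βerko stretches (1 at 30 to 70 % in wt, 1 from below and 3 from above 70 %). With a range of 20 to 80 %, there were 48 wt stretches (31 kept, 17 lost to low and 0 to high values) and 37 βerko stretches (21 partly methylated in wt, 6 from low values). With 1 CpG outside the range bridged, there were 23 wt stretches (7 kept, 15 lost to low and 1 to high values). Blocks called by their mean, an alternative added after the data had been seen, gave 28 in wt (14 kept) and 30 in βerko MEFs (14 partly methylated in wt). With gaps of at most 100 or 500 bp, or single strand positions, every stretch count stayed within 1.5 times the main one. In all these counts of wt stretches, more were lost to low than to high values.

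With at least 10 reads in both libraries there were 12 hypomethylated DMPs. With limits of 10 and 90 % there were 4 hypomethylated DMPs and 1 hypermethylated DMP. Of the mean differences per gene, that of Meg3 reversed, to 1.87 percentage points, with the gene body alone. The same alternative moved Zrsr1 from -24.1 to -12.6, Asb4 from -17.4 to -31.4 and Cdkn1c from -20.5 to -32.8 percentage points. The cause of these changes, beyond the definitions themselves, was not tested. No paired analysis was possible because there was 1 library per cell type. The depth at positions outside the DMP tables is unknown, which limits every percentage at a single CpG.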
